A study of Mus musculus with 8 samples.

Results

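iNSC-derived iPSCs (iNdiPSCs) are pluripotent cells that were made from induced neural stem cells (iNSCs), a cell type that had itself been made from mouse embryonic fibroblasts (MEFs). Gene expression in iNdiPSCs was set against that in the iNSCs they came from, on 3 of the 8 arrays of the series, which were picked by their sample labels: the clones iNdiPSC-1 and iNdiPSC-4 with 1 array each, and iNSC with 1 array. All 3 samples are labelled with the background strain C3H. The iNSCs arose from MEFs that were given *Sox2*, *Klf4*, *Myc* and the POU factor *Brn4*. The clones arose from iNSCs after transduction with retroviruses carrying *Oct4* (*Pou5f1*) and *Klf4*, so transgenes of both rounds may be present. The clones were grown on feeder cells in 2i medium and the iNSCs in neural stem cell medium, and the effects of medium, feeder cells and passage cannot be told apart from those of the change in cell state. The other 5 arrays, all labelled B6D2F1/J, hold the control pluripotent lines NSC2FiPSC (iPSCs made from brain-derived neural stem cells, or NSCs, with *Oct4* and *Klf4*), MEF4FiPSC (iPSCs made from MEFs with *Oct4*, *Sox2*, *Klf4* and *Myc*) and ESC (embryonic stem cells), together with NSC and MEF. Both iNdiPSC samples are single clones of 1 iNSC population, and the labels number the second clone 4 where the study describes clones 1 and 2. The iNSC value of a gene rests on 1 array and has no spread of its own.

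The naive pluripotent state of mouse cells is held by a network of transcription factors around *Oct4*, *Sox2* and *Nanog*, which bind to and activate one another's genes. 2i medium keeps cells in this state by inhibiting the kinases MEK and GSK3. Neural stem cells also depend on *Sox2*, but pair it with neural regulators such as *Sox9*, *Olig2* and the targets of Notch signalling, and give rise to neurons, astrocytes and oligodendrocytes. Cells that enter pluripotency acquire epithelial contacts through E-cadherin and claudins and give up mesenchymal proteins such as vimentin and N-cadherin.

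A single gene symbol was available for 23978 of the 25697 probes, which read 16593 genes. Probes counted as detected where their detection p-value was below 0.01. In iNdiPSC-1 and iNdiPSC-4, 11717 and 11779 probes were detected, against 11384 in iNSCs, and the 8 arrays ranged between 11087 and 12128. The median raw intensity of an array lay between 112 and 128. All values below are log2 normalised signals, obtained from all 8 arrays together, and a gene is read from its probe of highest mean. The lowest signal of a detected probe, the detection floor, lay between 5.06 and 5.18 on the 3 arrays. Values marked as not detected have no order among themselves, and a fold against them was computed with these values at the floor and is given as "at least". Log2 differences and medians use the values as computed unless the floor is named. Levels are compared only within a gene, since probes differ in brightness.

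The cell type of the samples was checked with markers. All 9 markers of pluripotent cells were detected in both clones, against 2 of 9 in iNSCs, where *Zfp42* at 5.45 and *Dppa5a* at 5.22 lay close to the floor. Of 8 measured markers of neural stem cells, 2 were detected in each clone (*Nes* and *Slc1a3*), against 7 in iNSCs. *Pax6* was the marker missing from iNSCs. GEO's label lists the iNSCs as pluripotent, which their markers go against, and they are treated here as the somatic starting cells.

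**Figure D1:**
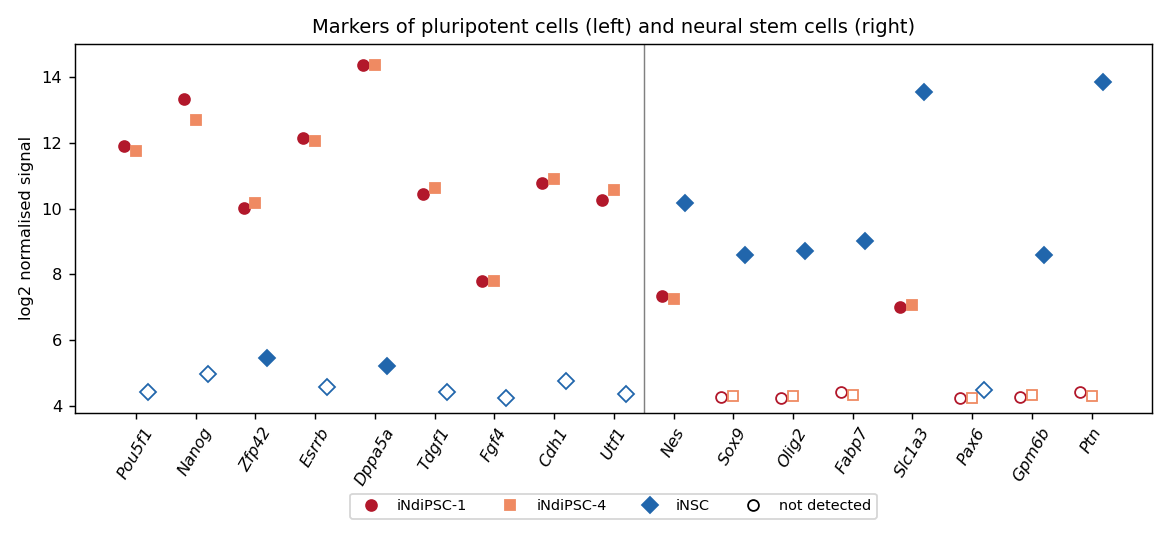
Log2 normalised signal of 9 markers of pluripotent cells and 8 markers of neural stem cells in iNdiPSC-1 (circles), iNdiPSC-4 (squares) and iNSCs (diamonds), with open symbols for probes that were not detected. The clones lie at 7.78 or above for every pluripotency marker, and iNSCs lie above the clones for the 7 neural markers they express.

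A gene was tested when it was detected in iNSCs or in both clones, which held for 8942 of 16593 genes. It was called when both clones differed from iNSCs in the same direction by at least 2-fold. This rule called 3846 genes, or 43.0% of those tested: 1964 were higher in the clones (22.0%) and 1882 were lower (21.0%). Of the higher genes, 842 (42.87%) were not detected in iNSCs, and of the lower genes 695 (36.93%) were not detected in 1 or both clones. The rule used undetected values as computed, and with these values at the floor it called 3407 genes. The mean difference of the clones, also with undetected values as computed and not as a bound, reached 4-fold for 862 higher and 882 lower genes. It reached 16-fold for 171 and 173, and 64-fold for 43 and 36. The median SD between the clones was 0.12 among the higher genes and 0.10 among the lower genes, against median log2 differences of 1.87 and -1.93.

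The same difference was also fitted with limma, which takes the spread from the 2 clones and the 3 control pluripotent lines (3 residual degrees of freedom) and assumes that iNSCs vary as those lines do. With a Benjamini-Hochberg adjusted p under 0.05 and a 2-fold difference as its criteria, limma called 3931 genes (44.0%), 1982 higher and 1949 lower. Both rules were met by 1823 higher genes, which are said below to have risen, and by 1816 lower genes, which are said to have fallen. "Higher" and "lower" alone refer to the fold rule. The median difference over all genes tested was 0.0085, or 0.0012 with undetected values at the floor. Without background correction, 2168 genes met the fold rule and 2297 were called by limma. A gene that was detected on only 1 side entered the test through the side where it is high, as did the 842 higher and 695 lower genes above, and its direction was largely set by that. For lists with many such genes the counts describe the members tested, not all members. The shares of called genes given for the lists below are to be read against the 43.0% of all tested genes. Of 1474 further probes of called genes, 1078 gave the same call and 10 the opposite one.

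Nearly all tested genes of the naive pluripotency network were higher in the clones. Of 17 tested factors, 16 rose (94.1%, 9 of them undetected in iNSCs) and none fell, with a median log2 difference of 5.77 (5.23 with undetected values at the floor). *Dppa5a*, an RNA-binding protein of pluripotent cells, stood at 14.37 and 14.35 in iNdiPSC-1 and iNdiPSC-4, against 5.22 in iNSCs. Its level was 565-fold higher in the clones, the largest measured fold of any higher gene (limma, log2 difference 9.14 with a standard error of 0.19, adjusted p = 2.98e-05). *Nanog*, the homeodomain factor that stabilises the network, stood at 13.32 and 12.70 in iNdiPSC-1 and iNdiPSC-4, against 4.96 (not detected) in iNSCs, and was at least 228-fold higher (log2 difference 8.05, standard error 0.52, adjusted p = 0.000204). The 2 clones lay further apart on *Nanog* than on *Dppa5a*, but both were far above the iNSC array.

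Endogenous and viral transcripts of *Oct4* may both contribute to its probe, and their shares were not tested. *Pou5f1*, the gene of this factor, stood at 11.90 and 11.75 in iNdiPSC-1 and iNdiPSC-4, against 4.42 (not detected) in iNSCs (at least 100.1-fold higher, adjusted p = 5.94e-05). *Esrrb*, an orphan nuclear receptor that *Nanog* regulates, had 12.14 and 12.04 in the clones against 4.57 (not detected) in iNSCs (at least 120.2-fold, adjusted p = 0.000168). *Sall4*, a zinc finger partner of *Oct4*, had 11.99 and 12.01 in the clones against 4.68 (not detected) in iNSCs (at least 113-fold, adjusted p = 4.02e-05). *Dppa4*, a chromatin-binding developmental pluripotency protein, had 12.67 and 12.82 in the clones against 4.25 (not detected) in iNSCs (at least 189-fold, adjusted p = 4.11e-05). None of these genes was detected in iNSCs, and both clones expressed all of them far above the floor. *Zfp42* (*Rex1*), a marker of the naive state, was 24.9-fold higher at 10.01 and 10.17 in the clones against 5.45 in iNSCs (adjusted p = 0.000382).

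Of the 4 factors used to make iNSCs, *Sox2*, *Klf4* and *Myc* belong to this list. *Sox2* was the only tested member that was not called: its level was 9.82 and 9.72 in iNdiPSC-1 and iNdiPSC-4, against 9.92 in iNSCs (log2 difference -0.15, standard error 0.34, adjusted p = 0.732). It was also detected in NSCs, at 9.84, and not in MEFs. *Klf4*, a factor of both rounds of reprogramming, rose 7.48-fold (adjusted p = 0.00806) to 11.27 and 10.69 in the clones, against 8.08 in iNSCs. *Myc* was not detected on any of the 3 arrays, with 4.75 and 4.795 (not detected) in the clones against 4.77 (not detected) in iNSCs, so it was not tested. Whether the probes of *Sox2* and *Klf4* read the transgenes was not tested. The study's qRT-PCR found the *Sox2*, *Brn4* and *Myc* transgenes silenced in iNSCs and not reactivated in its iNdiPSCs, and the viral *Klf4* silenced in the latter.

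The letters TTTGCAT belong to the octamer that Oct4 and other POU factors bind, which stands beside a Sox2 site in the promoter of *Nanog*. The 250 bases before one annotated start of *Nanog* (RefSeq, GRCm38.p6, chr6:122707239-122707488, plus strand) are shown because Oct4 and Sox2 act on them, with these letters in capitals:

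Nanog: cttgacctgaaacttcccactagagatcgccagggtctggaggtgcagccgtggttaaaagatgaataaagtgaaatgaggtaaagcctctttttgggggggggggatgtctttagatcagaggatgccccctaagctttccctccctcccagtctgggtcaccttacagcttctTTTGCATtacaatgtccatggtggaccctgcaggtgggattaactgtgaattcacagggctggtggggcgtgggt

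The match starts 75 bases before the start site. Searched on both strands (TTTGCAT or ATGCAAA) in windows of 300 bases, from 250 before to 50 after each start, the letters were present for 64 of 1566 higher genes with a window (4.09%), 88 of 1502 lower genes (5.86%) and 309 of 7297 tested genes (4.23%), and in 4.63% of all 32851 windows. The share among the higher genes was thus close to that over all tested genes.

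Secreted and RNA-binding genes of pluripotent cells were higher as well. All 10 tested members were higher, 9 of them undetected in iNSCs, and 9 rose (100% called, median 4.46, or 3.73 with the floor). *Nodal*, a TGF-beta ligand of the early embryo, had 9.19 and 9.24 in the clones against 4.48 (not detected) in iNSCs (at least 16.4-fold, adjusted p = 0.000167), and its coreceptor *Tdgf1* (Cripto) had 10.43 and 10.63 in the clones against 4.43 (not detected) in iNSCs (at least 40.8-fold, adjusted p = 0.000154). *Lefty1*, the secreted antagonist of this pair, had 10.34 and 10.01 in the clones against 4.41 (not detected) in iNSCs (at least 31.8-fold, adjusted p = 0.000221). Ligand, coreceptor and inhibitor were therefore all undetected in iNSCs and detected in both clones. *Gdf3*, a ligand of the same family, rose at least 18.3-fold, and *Fgf4*, the autocrine FGF of the epiblast, rose at least 6.08-fold to 7.79 and 7.78 in the clones. Among the RNA-binding members, *L1td1* rose at least 43.7-fold and *Lin28a*, which blocks maturation of let-7 miRNAs, rose at least 10.7-fold. The member that was higher without passing limma was *Bmp4*, a ligand of the BMP family, at 6.89 and 6.89 in the clones against 5.80 in iNSCs (adjusted p = 0.184).

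Of 6 tested genes of the primed epiblast, the state that follows implantation, 4 rose and 1 fell (83.3% called, median 1.89, or 1.64 with the floor). *Otx2*, a homeodomain factor of the primed state, rose at least 42.2-fold to 10.43 and 10.73, against 4.34 (not detected) in iNSCs (adjusted p = 0.000187). The clones lay above the 3 control pluripotent lines on this gene, which had 9.14, 8.26 and 8.46. *Sox3*, a relative of *Sox2* that neural progenitors use, fell at least 3.85-fold and was undetected in both clones (adjusted p = 0.000282). *Fgf5*, the standard marker of primed cells, was not called at 5.35 and 5.24 in the clones against 4.52 (not detected) in iNSCs.

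Germ line genes that DNA methylation silences in somatic cells were mostly higher in the clones. Of 13 tested members, 11 rose, all undetected in iNSCs, and 1 fell (92.3% called, median 3.04, or 2.15 with the floor). *Rhox5*, an X-linked homeobox gene, stood at 12.71 and 12.54 in iNdiPSC-1 and iNdiPSC-4, against 4.44 (not detected) in iNSCs (at least 175-fold, adjusted p = 0.000261). *Tex19.1*, which restrains retrotransposons, had 12.20 and 12.20 in the clones against 4.40 (not detected) in iNSCs (at least 129.9-fold, adjusted p = 0.00013). *Dazl*, an RNA-binding protein of germ cells, had 10.87 and 10.15 in the clones against 4.34 (not detected) in iNSCs (at least 40.2-fold, adjusted p = 0.000127). On *Dazl* both clones also lay above the 3 control lines, which ranged between 8.19 in ESC and 8.42 in NSC2FiPSC. *Piwil2*, a Piwi protein, rose at least 8.61-fold, whereas *Tdrkh*, a Tudor protein of the same pathway, fell 4.46-fold (adjusted p = 0.00183).

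Among genes of DNA methylation, *Dnmt1*, *Dnmt3b* and *Dnmt3l* rose, *Dnmt3a* was not tested, and one of the Gadd45 genes fell. Of 11 tested genes, 6 rose and 1 fell (63.6% called, median 1.76, or 1.76 with the floor). *Dnmt3l*, the cofactor of the de novo methyltransferases, had 12.11 and 12.57 in the clones against 4.33 (not detected) in iNSCs (at least 143-fold, adjusted p = 7.25e-05). *Dnmt3b*, one of these enzymes, had 11.52 and 11.85 in the clones against 6.52 in iNSCs (35.9-fold, adjusted p = 8.84e-05). The maintenance enzyme *Dnmt1* rose 3.40-fold and its partner *Uhrf1* rose 6.18-fold. *Gadd45a* and *Gadd45b*, stress-response genes, rose 7.08-fold and 4.51-fold, whereas *Gadd45g* fell 18.2-fold, with 8.53 and 8.65 in the clones against 12.78 in iNSCs (adjusted p = 0.00154). *Tdg*, the glycosylase that removes oxidised methylcytosine, was not called at 8.43 and 8.46 in the clones against 8.55 in iNSCs, nor was *Mbd3* at 8.42 and 8.63 in the clones against 8.505 in iNSCs.

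Polycomb and chromatin remodelling genes were called in both directions, at a share near the 43.0% of all tested genes. Of 20 tested genes, 7 rose and 3 fell (50% called, median 0.73, or 0.73 with the floor). The core subunits of Polycomb complex PRC2 *Eed* and *Suz12* rose 4.07-fold and 3.72-fold, while the methyltransferase subunit *Ezh2* was not called at 10.35 and 10.21 in the clones against 10.37 in iNSCs (adjusted p = 0.828). *Mtf2*, a PRC2 accessory subunit, rose 13.8-fold to 10.91 and 10.76, against 7.04 in iNSCs. *Cbx7*, the chromobox protein of PRC1 in embryonic stem cells, rose at least 11.98-fold. The 3 genes that fell were all subunits of SWI/SNF remodelling complexes. *Smarca2*, the ATPase found in differentiated cells, fell 9.56-fold (adjusted p = 0.00984), *Smarcc2* fell at least 10.4-fold and *Smarcd3* fell at least 15.03-fold. *Actl6a*, the subunit of progenitor cells, rose 2.29-fold.

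The neural stem cell genes that could be tested were lower in the clones. All 16 tested genes of neural stem cells and radial glia fell, of 21 with a probe and with 7 undetected in both clones, with a median log2 difference of -4.46 (-4.02 with the floor). *Ptn* (pleiotrophin), a growth factor secreted by neural progenitors, stood at 4.44 and 4.30 (not detected) in iNdiPSC-1 and iNdiPSC-4, against 13.85 in iNSCs (at least 439.6-fold lower, log2 difference -9.48, standard error 0.22, adjusted p = 2.98e-05). *Slc1a3*, the glutamate transporter GLAST of radial glia, had 7.002 and 7.06 in the clones against 13.54 in iNSCs (90.99-fold lower, adjusted p = 0.000187). *Nfib*, a transcription factor of the nuclear factor I family, had 6.66 and 6.18 in the clones against 12.48 in iNSCs (66.9-fold lower, adjusted p = 0.000546). Both clones were below the iNSC array on each of these genes, though only *Ptn* fell below detection. *Rfx4* (at least 47.7-fold lower), *Sox21* (28.8-fold) and the EGF receptor *Egfr* (27.55-fold) followed. *Nes*, the intermediate filament nestin, was 7.35 and 7.24 in the clones against 10.16 in iNSCs (7.29-fold lower, adjusted p = 0.041). Its signal was thus above the floor in both clones. Each control pluripotent line also had 2 of the 8 measured neural stem cell markers detected, as many as each clone. *Sox9*, *Fabp7* and *Gpm6b* were not detected in either clone and fell at least 11.4-fold, at least 15.2-fold and at least 11.4-fold.

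Astrocyte genes followed with exceptions. Of 16 tested members, 9 fell and 2 rose (75% called, median -1.87, or -1.41 with the floor). *Bcan*, the chondroitin sulphate proteoglycan brevican, fell at least 177-fold, and *Aqp4*, the water channel of astrocyte endfeet, fell at least 26.2-fold. *Bcan* stood at 4.45 and 4.502 (not detected) in iNdiPSC-1 and iNdiPSC-4, against 12.54 in iNSCs (adjusted p = 2.98e-05). *Gja1*, which encodes the gap junction protein connexin 43, rose 25.9-fold to 10.97 and 10.503, against 6.04 in iNSCs (adjusted p = 0.000247). NSCs did not share the low iNSC level of *Gja1* but had 12.19. *Apoe*, an apolipoprotein that astrocytes secrete, was not called at 9.36 and 9.42 in the clones against 10.10 in iNSCs.

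In the oligodendrocyte lineage, 5 of 7 tested genes fell and 1 rose (100% called, median -4.32, or -3.64 with the floor). *Olig1*, a basic helix-loop-helix factor of oligodendrocyte precursors, stood at 4.72 and 4.67 (not detected) in iNdiPSC-1 and iNdiPSC-4, against 14.29 in iNSCs, and its fall of at least 598-fold was the largest of any gene (adjusted p = 0.000349). Its neighbour *Olig2* fell at least 12.4-fold, *Sox8* fell at least 57.01-fold and *Cnp*, an enzyme of myelin, fell 10.2-fold. *Nkx2-2*, a homeodomain factor of the same lineage, was undetected in iNSCs and reached 5.90 and 6.78 in the clones (adjusted p = 0.00975). Neuronal genes went both ways, with 3 that rose and 3 that fell among 9 tested (66.7% called, median 0.88, or 0.091 with the floor). The microtubule protein *Map2* fell 49.4-fold and the adhesion molecule *Ncam1* fell at least 35.02-fold, while *Stmn2*, which regulates microtubule stability, rose at least 9.99-fold to 8.61 and 8.38 in the clones. *Stmn2* was at 9.24 or above in all 3 control pluripotent lines.

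Hox genes record the position of a cell along the body axis, and those detected in iNSCs were mostly lower in the clones. Of 38 Hox genes with a probe, 21 were tested, 17 fell, 12 of them to below detection in both clones, and none rose (81% called, median -2.86, or -2.43 with the floor). *Hoxc9* stood at 4.96 and 4.56 (not detected) in iNdiPSC-1 and iNdiPSC-4, against 10.90 in iNSCs (at least 57.1-fold lower, adjusted p = 6.64e-05). *Hoxc6* had 4.94 and 4.47 (not detected) in the clones against 10.82 in iNSCs (at least 53.97-fold, adjusted p = 0.000152), and *Hoxa5* had 4.79 and 4.94 (not detected) in the clones against 10.65 in iNSCs (at least 47.99-fold, adjusted p = 0.00321). Genes of all 4 clusters fell, among them *Hoxa7* by 43.7-fold, *Hoxb7* by at least 18.6-fold and *Hoxd8* by 15.4-fold. *Hoxc9* and *Hoxc6* were expressed in MEFs, at 7.61 and 10.54, and undetected in NSCs. *Hoxa13* was not called at 5.37 and 5.22 in the clones against 5.58 in iNSCs.

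Of 17 tested genes that the study also followed by qPCR, 8 fell and 6 rose (82.4% called, median -0.21, or -0.21 with the floor). The small heat shock protein *Cryab* fell 31.8-fold, with 5.30 and 5.92 in the clones against 10.61 in iNSCs (adjusted p = 0.0044). *Pdzrn3*, a ubiquitin ligase, fell 15.49-fold (adjusted p = 0.00685), *Adcy2*, an adenylyl cyclase, fell 15.4-fold (adjusted p = 0.00348) and *Anxa5*, a phospholipid-binding annexin, fell 4.59-fold (adjusted p = 0.0206). *Hebp2*, a heme-binding protein, rose at least 4.05-fold, with 7.21 and 7.18 in the clones against 4.195 (not detected) in iNSCs (adjusted p = 0.00187). *Ly6c1* and *Cxcl1* were not tested, since neither was detected in iNSCs or in both clones. The list holds genes that the study picked from these arrays beside markers of pluripotent and neural stem cells, and it is no independent evidence of a direction.

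The tested epithelial genes were mostly higher and the tested mesenchymal genes mostly lower. Of 20 tested genes of epithelial adhesion, 16 were higher, 15 rose and none was lower (80% called, median 2.93, or 2.09 with the floor). Of the 16 higher genes, 15 were undetected in iNSCs. They entered the test through the clones and could not have been called lower. *Cdh1*, the gene of E-cadherin, stood at 10.79 and 10.91 in iNdiPSC-1 and iNdiPSC-4, against 4.77 (not detected) in iNSCs (at least 50.9-fold higher, adjusted p = 0.000105). *Cldn4*, a claudin of tight junctions, had 10.64 and 11.28 in the clones against 4.54 (not detected) in iNSCs (at least 54.96-fold, adjusted p = 0.000712). *Cldn6*, a claudin of embryonic epithelia, had 10.43 and 10.88 in the clones against 4.46 (not detected) in iNSCs (at least 44.54-fold, adjusted p = 0.000731). None of the 3 was detected in iNSCs. *Krt8*, an epithelial keratin, rose at least 23.6-fold, and *Grhl2*, a transcription factor that activates junction genes, rose at least 23.49-fold. *Cldn7* was not called at 6.10 and 6.96 in the clones against 5.40 in iNSCs.

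Of 8 tested genes of mesenchymal transition, 6 were lower, 5 fell and none was higher (75% called, median -3.17, or -3.01 with the floor). *Zeb1*, a repressor of *Cdh1*, had 7.47 and 6.70 in the clones against 12.03 in iNSCs (30.9-fold lower, adjusted p = 0.000758). Its relative *Zeb2* had 4.62 and 4.87 (not detected) in the clones against 8.14 in iNSCs (at least 8.39-fold lower, adjusted p = 0.000192). *Vim* (vimentin) fell 17.1-fold, with 8.31 and 7.72 in the clones against 12.11 in iNSCs (adjusted p = 0.000652). *Cdh2* (N-cadherin) fell at least 3.23-fold and *Tgfb2*, a ligand that drives the transition, fell 10.6-fold. *Tgfbr2*, a receptor for it, was 7.73-fold lower without passing limma (adjusted p = 0.102). *Snai1* was not called at 5.69 and 5.76 in the clones against 4.88 (not detected) in iNSCs.

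The E-box CAGGTG is the sequence that Zeb and Snail repressors bind, and it is present before the start of both claudin genes. The 250 bases before the start site of each (RefSeq, GRCm38.p6, *Cldn4* at chr5:134946935-134947184 on the minus strand and *Cldn6* at chr17:23679115-23679364 on the plus strand) are shown with the E-box, or its reverse complement CACCTG, in capitals:

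Cldn4: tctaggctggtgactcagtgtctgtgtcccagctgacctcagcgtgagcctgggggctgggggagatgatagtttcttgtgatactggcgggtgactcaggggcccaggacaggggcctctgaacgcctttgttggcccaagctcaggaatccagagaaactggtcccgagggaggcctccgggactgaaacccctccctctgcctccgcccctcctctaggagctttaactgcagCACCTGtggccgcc

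Cldn6: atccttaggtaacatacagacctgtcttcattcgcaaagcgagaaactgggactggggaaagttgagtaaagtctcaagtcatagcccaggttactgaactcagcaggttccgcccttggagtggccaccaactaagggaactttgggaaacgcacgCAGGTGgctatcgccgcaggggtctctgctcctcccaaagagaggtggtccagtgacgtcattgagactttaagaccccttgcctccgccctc

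Each gene had 1 match before the start site and 2 in the window of 300 bases. On both strands the E-box was present for 411 of 1566 higher genes with a window (26.2%), 304 of 1502 lower genes (20.2%) and 1541 of 7297 tested genes (21.1%), and in 20.2% of all 32851 windows.

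Splicing and RNA-binding regulators included strong changes in both directions, with 6 that rose and 3 that fell of 14 tested (71.4% called, median 0.80, or 0.80 with the floor). *Igf2bp1*, an mRNA-binding protein of embryonic cells, stood at 11.97 and 11.63 in iNdiPSC-1 and iNdiPSC-4, against 4.25 (not detected) in iNSCs (at least 98.6-fold higher, adjusted p = 4.11e-05). *Esrp1*, which sets the epithelial pattern of splicing, rose at least 19.6-fold with 9.24 and 9.70 in the clones against 4.42 (not detected) in iNSCs, and *Rbm47*, another epithelial splicing regulator, rose at least 30.04-fold. *Celf2* fell 8.48-fold, and *Mbnl1*, which promotes splicing patterns of differentiated cells, was 5.43-fold lower without passing limma (adjusted p = 0.0691).

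**Figure D2:**
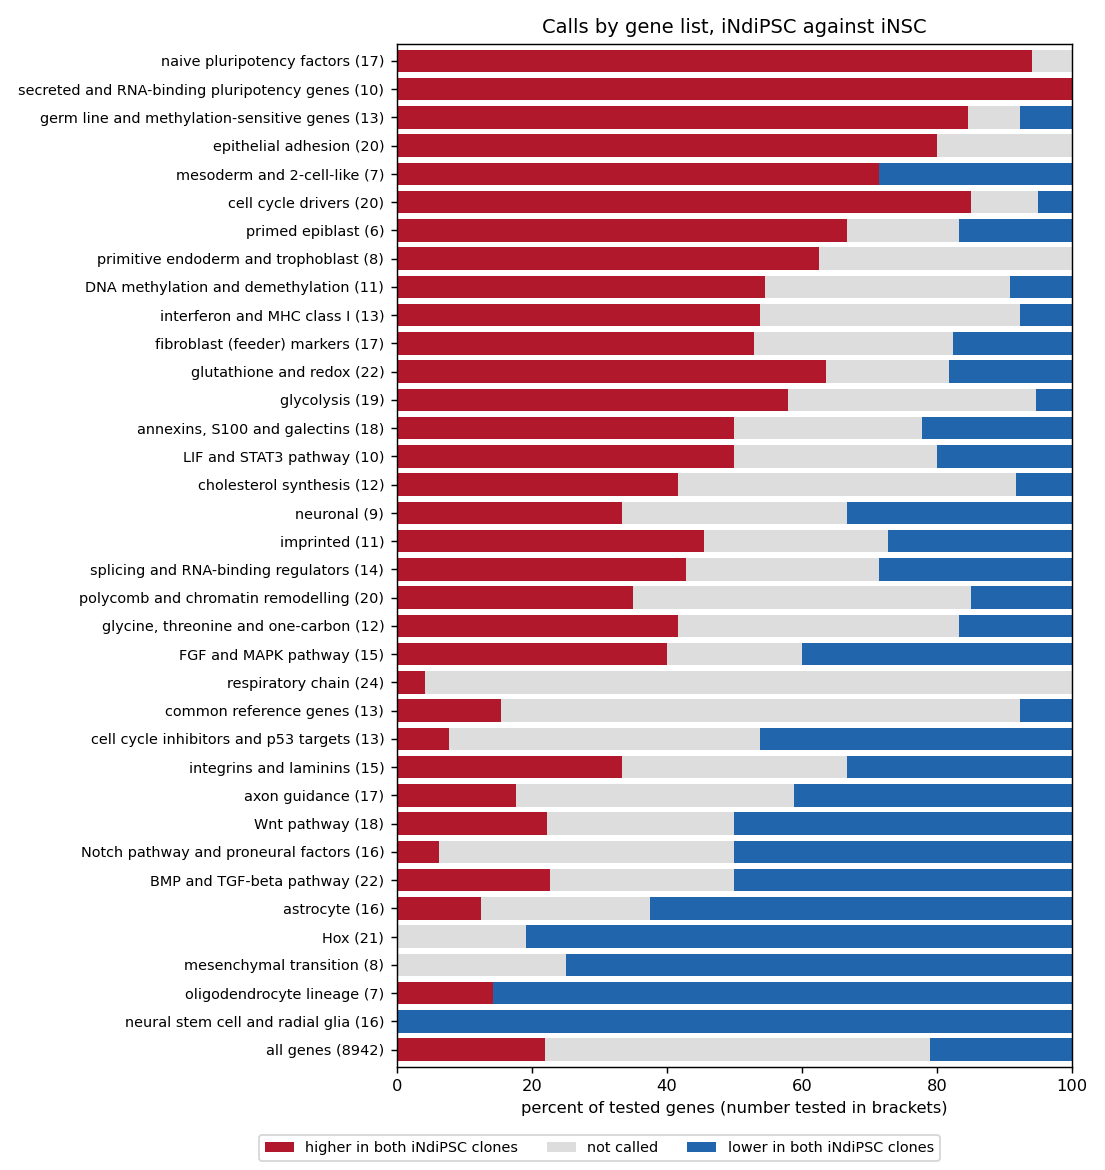
Percent of the tested genes of each list that were higher in both iNdiPSC clones (red), not called (grey) or lower in both clones (blue) than in iNSCs, with the number tested in brackets and all 8942 tested genes in the bottom row. The tested neural stem cell genes are lower, pluripotency genes are almost all higher, and the respiratory chain is almost wholly not called.

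Most genes that drive the cell cycle were higher. Of 20 tested members, 17 rose and 1 fell (90% called, median 2.26, or 2.26 with the floor). *Cdc6*, which loads the replicative helicase, stood at 10.26 and 9.996 in iNdiPSC-1 and iNdiPSC-4, against 6.32 in iNSCs (13.96-fold higher, adjusted p = 0.000162). *Ccne1* (cyclin E), which triggers entry into S phase, had 9.52 and 9.49 in the clones against 6.05 in iNSCs (10.9998-fold, adjusted p = 0.00015). The helicase subunits *Mcm3* and *Mcm6* rose 9.42-fold and 8.32-fold, and the transcription factor *Mybl2* rose 9.88-fold. The D cyclins, which act earlier in the cycle, did not move together: *Ccnd3* rose 5.94-fold and *Ccnd1* rose 3.08-fold, while *Ccnd2* fell 6.61-fold (adjusted p = 0.0216). *Ccna2* (cyclin A) and the mitotic kinase *Plk1* were not called, with log2 differences of 0.18 and 0.86.

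Among 13 tested inhibitors and p53 targets, 6 were lower, 5 fell and 1 rose (53.8% called, against 43.0% of all tested genes, median -0.57, or -0.57 with the floor). *Cdkn2a*, the locus of p16 and p19ARF, stood at 5.97 and 5.61 in iNdiPSC-1 and iNdiPSC-4, against 9.54 in iNSCs (13.49-fold lower, adjusted p = 0.000956). Its relatives *Cdkn2b* and *Cdkn2c* fell 6.72-fold and 19.4-fold, and *Cdkn1b* (p27) fell at least 2.82-fold. *Mdm2*, the ubiquitin ligase of p53, rose 4.57-fold (adjusted p = 0.00351). *Cdkn1a* (p21), the classical p53 target, was not called at 10.03 and 10.004 in the clones against 10.58 in iNSCs (adjusted p = 0.507), nor was *Rb1* at 9.32 and 9.16 in the clones against 9.58 in iNSCs.

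In the pathway of LIF, the cytokine that sustains mouse pluripotent cells, feedback targets were higher and the receptor subunits were not called. *Socs3*, a feedback inhibitor, stood at 10.27 and 10.34 in iNdiPSC-1 and iNdiPSC-4, against 6.502 in iNSCs (13.9-fold higher, adjusted p = 0.000295), *Socs2* rose 12.2-fold and the kinase *Pim3* rose 8.30-fold. *Stat3*, the transcription factor of the pathway, fell 5.37-fold, with 8.96 and 8.58 in the clones against 11.19 in iNSCs (adjusted p = 0.00101). The receptors *Lifr* and *Il6st* and the kinase *Jak1* were not called, with log2 differences of 0.01, 0.30 and -0.11. In the list as a whole, 5 of 10 tested genes rose and 2 fell (70% called, median 1.14, or 0.74 with the floor).

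FGF and MAPK genes divided evenly, with 6 higher and 6 lower of 15 tested (80% called, median 0.42, or 0.42 with the floor). The receptors *Fgfr1*, *Fgfr2* and *Fgfr3* all fell below detection in the clones, by at least 2.02-fold, at least 2.92-fold and at least 7.69-fold. *Fgfr1* was no longer called with 75th percentile scaling. The feedback inhibitors *Dusp4*, *Dusp6* and *Spry4* rose at least 9.45-fold, 6.67-fold and 7.26-fold, with *Dusp6* at 11.68 and 11.71 in the clones against 8.96 in iNSCs (adjusted p = 0.0113). *Etv4*, *Etv5* and *Fos*, transcription factors that MAPK signalling induces, were not called, with log2 differences of 0.49, 0.42 and -0.40, whereas *Etv1* fell 8.79-fold.

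BMP, TGF-beta, Wnt and Notch genes were more often lower than higher. Of 22 tested BMP and TGF-beta genes, 9 fell and 3 rose (72.7% called, median -1.34, or -1.34 with the floor). Among the ligands, *Bmp7* rose at least 4.61-fold and *Inhba* rose at least 4.88-fold, while *Inhbb* fell 7.54-fold. Among the receptors, *Bmpr1b* fell at least 14.2-fold and *Acvr2b* rose 3.42-fold. *Id4*, an inhibitor of helix-loop-helix factors in neural stem cells, fell at least 9.07-fold, while the targets *Id1* and *Id3* were not called, with log2 differences of -0.10 and -0.72.

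Of 18 tested Wnt genes, 9 fell and 2 rose (72.2% called, median -1.25, or -0.99 with the floor). The 4 higher genes were *Sp5*, *Dkk3*, *Sfrp1* and *Sfrp2*, of which 2 rose and 3 were undetected in iNSCs. The ligands *Wnt5a* and *Wnt7a* fell at least 27.8-fold and at least 7.46-fold, the receptors *Fzd2* and *Lgr5* fell at least 9.23-fold and at least 6.67-fold, and *Axin2*, a target of beta-catenin, fell 5.07-fold (adjusted p = 0.0205). *Tcf7l1*, the repressor on which GSK3 inhibition acts in pluripotent cells, was not called at 11.07 and 11.13 in the clones against 10.84 in iNSCs, nor was beta-catenin itself (*Ctnnb1*) at 12.54 and 12.34 in the clones against 13.20 in iNSCs. Of 16 tested Notch and proneural genes, 8 fell and 1 rose (56.2% called, median -1.30, or -0.80 with the floor). The receptor *Notch1* stood at 7.72 and 7.92 in iNdiPSC-1 and iNdiPSC-4, against 11.39 in iNSCs (11.9-fold lower, adjusted p = 0.000497). Its ligand *Dll1* fell 13.2-fold, and the targets *Hes5* and *Hey1* fell at least 26.54-fold and 30.46-fold (adjusted p = 8.19e-05 and 0.000588). The target *Hes1* was not called at 8.65 and 8.42 in the clones against 8.92 in iNSCs, and the receptor that rose was *Notch3*, by 2.49-fold.

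Of the genes of glycolysis 11 were higher and 7 not called, and those of the respiratory chain were almost all not called. Of 19 tested glycolytic genes, 10 rose and 1 fell (63.2% called, median 1.27, or 1.26 with the floor). The glucose transporter *Slc2a3* (GLUT3) stood at 13.43 and 13.06 in iNdiPSC-1 and iNdiPSC-4, against 6.74 in iNSCs (90.6-fold higher, adjusted p = 5.67e-05), and *Slc2a1* (GLUT1) had 11.97 and 11.71 in the clones against 7.48 in iNSCs (20.6-fold, adjusted p = 0.000171). *Hk2*, the inducible hexokinase, had 11.25 and 11.33 in the clones against 6.92 in iNSCs (20.7-fold, adjusted p = 0.00016), and *Pdk1*, which inhibits pyruvate dehydrogenase, rose 18.9-fold. Isoforms of the same step went separate ways: *Hk1* was not called at 6.99 and 7.13 in the clones against 7.34 in iNSCs, *Pfkp* rose 10.98-fold while *Pfkm* was not called at 9.97 and 9.97 in the clones against 10.89 in iNSCs, and the brain aldolase *Aldoc* fell 22.4-fold, with 8.64 and 8.71 in the clones against 13.16 in iNSCs (adjusted p = 0.0053).

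Of 24 tested genes of the respiratory chain, 1 was called (4.17%), the lowest share of any list and under the 43.0% of all genes. The gene was *Cox7a1*, a subunit of cytochrome c oxidase, at 9.34 and 9.46 in the clones against 5.66 in iNSCs (13.4-fold higher, adjusted p = 0.000782). The median of this list was 0.18 (0.18 with the floor). Of 13 common reference genes, 3 were called (23.1% called, median 0.081, or 0.081 with the floor). *Hprt* rose 4.55-fold, *Gapdh*, also an enzyme of glycolysis, rose 2.47-fold, and *B2m* fell 4.49-fold, while *Actb* and *Rplp0* were not called at log2 differences of -0.36 and -0.14.

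One-carbon and cholesterol genes showed smaller differences, and cholesterol genes were called at a share near that of all tested genes. In the glycine and one-carbon list, 5 of 12 tested genes rose and 2 fell (58.3% called, median 0.73, or 0.37 with the floor). The cytosolic *Shmt1* rose at least 6.77-fold and the mitochondrial *Shmt2* fell 2.99-fold, while *Phgdh*, the first enzyme of serine synthesis, fell 7.79-fold. In cholesterol synthesis, 5 of 12 rose and 1 fell (50% called, median 0.90, or 0.90 with the floor). The largest difference was that of *Lss*, lanosterol synthase, at 8.70 and 8.67 in the clones against 6.29 in iNSCs (5.25-fold, adjusted p = 0.00191), followed by *Fdps* and *Dhcr7*, which rose 3.85-fold and 3.13-fold. *Hmgcs1* and *Sqle*, enzymes of earlier steps, were not called, with log2 differences of -0.16 and -0.28.

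Genes of glutathione and redox defence rose in 12 and fell in 4 of 22 tested cases (81.8% called, median 1.37, or 1.37 with the floor). The glutathione peroxidases *Gpx1* and *Gpx3* rose 5.43-fold and at least 8.09-fold, and the transferase *Gsta4* rose 12.1-fold, with 10.79 and 10.60 in the clones against 7.10 in iNSCs (adjusted p = 0.000185). *Mgst1*, a microsomal transferase, fell 25.9-fold, with 5.33 and 5.09 in the clones against 9.90 in iNSCs (adjusted p = 0.00155), and *Prdx2* fell 2.5003-fold. The transferase genes *Gstm1* and *Gstm2* are close copies that went in opposite directions, *Gstm2* rising 9.88-fold and *Gstm1* falling 4.08-fold. Whether their probes also read each other's transcripts was not tested.

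Imprinted, interferon and annexin genes also split. Of 11 tested imprinted genes, 5 rose and 3 fell (72.7% called, median 0.83, or 0.83 with the floor). The maternally expressed *Grb10* and *Phlda2* rose 23.9-fold and at least 15.52-fold, and the paternally expressed *Igf2* rose at least 17.02-fold to 9.29 and 9.25 in the clones (adjusted p = 0.000345), while *Mest* fell 7.69-fold and *Gnas* fell 13.48-fold. Of 13 tested interferon and MHC genes, 6 rose and 1 fell (61.5% called, median 1.56, or 0.81 with the floor), with *Ly6e* 21.1-fold and *Ifitm3* 12.4-fold higher. In the list of annexins, S100 proteins and galectins, 8 of 18 rose and 4 fell (72.2% called, median 1.19, or 0.54 with the floor). *Anxa11*, an annexin, stood at 10.41 and 10.32 in iNdiPSC-1 and iNdiPSC-4, against 4.34 (not detected) in iNSCs (at least 36.4-fold higher, adjusted p = 8.19e-05), while *Lgals1* (galectin-1) fell 7.68-fold.

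Receptors and ligands of axon guidance, and the integrins and laminins, were mixed. Of 17 tested guidance genes, 7 fell and 2 rose (58.8% called, median -0.87, or -0.44 with the floor). *Epha2*, an ephrin receptor, stood at 9.55 and 9.40 in iNdiPSC-1 and iNdiPSC-4, against 4.23 (not detected) in iNSCs (at least 19.6-fold higher, adjusted p = 0.00214), while the semaphorin *Sema3a* and its receptor *Nrp1* fell at least 15.2-fold and at least 7.41-fold. Of 15 tested integrins and laminins, 3 rose and 5 fell (66.7% called, median -0.62, or -0.31 with the floor). The fibronectin receptor subunit *Itga5* rose 4.97-fold, and *Itga9* and *Itgb1* fell at least 4.34-fold and 3.07-fold.

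Genes of the lineages beside the epiblast were tested in 8 of 15 cases. Of 8 tested genes of primitive endoderm and trophoblast, 3 rose (62.5% called, median 1.87, or 1.26 with the floor): *Tfap2c* by at least 75.48-fold, *Amn* by at least 2.61-fold and *Eomes* by at least 2.21-fold. *Tfap2c*, which also acts in pluripotent and germ cells, had 11.59 and 11.25 in the clones against 4.36 (not detected) in iNSCs (adjusted p = 0.000147), and *Gata6*, the defining factor of primitive endoderm, was higher at 6.78 and 6.80 in the clones against 4.76 (not detected) in iNSCs without passing limma (adjusted p = 0.0713). *Gata4* and *Sox17* were not tested. Among 7 tested genes of mesoderm and of the 2-cell-like state that pluripotent cultures enter at times, 4 rose and 1 fell (100% called, median 2.31, or 1.43 with the floor). *Zscan4c*, a zinc finger gene of that state, rose at least 28.3-fold to 10.41 and 9.59 in the clones, against 4.55 (not detected) in iNSCs (adjusted p = 0.000551), and *Tcstv3* rose at least 5.82-fold. These genes have near-identical copies, and which copies their probes read was not tested.

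Among the other genes with the largest differences, *Chchd10*, a mitochondrial protein, stood at 13.90 and 13.87 in iNdiPSC-1 and iNdiPSC-4, against 4.33 (not detected) in iNSCs (at least 417-fold higher, adjusted p = 4.02e-05). *Fbxo15*, an F-box gene that Oct4 and Sox2 activate, had 13.12 and 12.75 in the clones against 4.44 (not detected) in iNSCs (at least 217-fold), *Ooep*, an oocyte-expressed protein, had 12.65 and 12.76 in the clones against 4.46 (not detected) in iNSCs (at least 184-fold), and *Hspb1*, a small heat shock protein, had 11.995 and 12.36 in the clones against 4.81 (not detected) in iNSCs (at least 128-fold). *Mdk* (midkine), the only relative of pleiotrophin, rose 118-fold, with 12.13 and 12.46 in the clones against 5.42 in iNSCs, opposite to *Ptn*. *Ccn2*, a matricellular protein, rose at least 154-fold, with 12.38 and 12.51 in the clones against 4.39 (not detected) in iNSCs (adjusted p = 0.00212). These levels were close between the clones and at or near the floor in iNSCs.

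On the lower side, the endothelin receptor *Ednrb* stood at 4.35 and 4.51 (not detected) in iNdiPSC-1 and iNdiPSC-4, against 12.95 in iNSCs (at least 236-fold lower, adjusted p = 2.98e-05). *Lrrn1*, a leucine-rich neuronal protein, had 5.37 and 4.795 (the second not detected) in the clones against 13.10 in iNSCs (at least 237-fold), and *Nr2f1* (COUP-TFI), a nuclear receptor of neural development, had 4.89 and 4.54 (not detected) in the clones against 12.67 in iNSCs (at least 194-fold). *Rgma*, a guidance molecule, fell 140.0-fold, *Cntn1*, a neural adhesion molecule, fell at least 102-fold, and the linker histone *H1f2* fell 135-fold while both clones kept a signal, at 6.99 and 6.32. *Igfbp5*, which binds insulin-like growth factors, fell at least 126-fold. NSCs also had *Ednrb* and *Nr2f1*, at 13.04 and 12.17.

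The fibroblast genes that could be tested were more often higher than lower in the clones. Of 17 tested fibroblast markers, 9 were higher and 3 lower, of which 5 rose and 1 fell (70.6% called, median 1.41, or 0.85 with the floor). All 9 higher markers were undetected in iNSCs, entered the test through the clones and could not have been called lower. The 3 lower markers, *Col5a2*, *Pdgfra* and *Timp3*, were detected in iNSCs, and 1 of them was undetected in both clones. *Acta2*, smooth muscle actin, had 10.34 and 10.86 in the clones against 5.003 (not detected) in iNSCs (at least 42.9-fold, adjusted p = 0.000752). *Lox*, which crosslinks collagen, had 8.23 and 7.80 in the clones against 4.30 (not detected) in iNSCs (at least 7.12-fold, adjusted p = 0.0167), and *Thy1*, a surface marker of fibroblasts, had 7.49 and 6.89 in the clones against 4.38 (not detected) in iNSCs (at least 4.04-fold, adjusted p = 0.0345). All 3 were undetected in iNSCs. MEFs had 14.48, 13.98 and 13.20 on these genes, above both clones, and ESC had 10.59, 7.33 and 6.38. Over the 9 defining markers of fibroblasts, 4 were detected in iNdiPSC-1 and 3 in iNdiPSC-4, against 0 in iNSCs, and all 9 in MEFs. The log2 of their summed signal was 8.86 and 8.43 in the clones, against 7.57 in iNSCs, and 14.47 in MEFs. The control lines NSC2FiPSC and MEF4FiPSC, also grown on feeder cells, had 5 markers detected each, and ESC had 1. The collagen gene *Col3a1* stood near the floor in the clones, at 5.38 and 5.13. The part of RNA from feeder cells in these values, and in those of *Igf2*, *Ccn2*, *Anxa3* and *S100a6*, which MEFs also expressed highly, was not tested. On bulk arrays, fewer cells of a type and less RNA per cell cannot be told apart.

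Expression that might have been carried over from iNSCs was sought with the filter in the study's methods. It takes genes that both clones express at least 2-fold above ESC and above MEF4FiPSC, and that iNSCs express at least 2-fold above MEF and ESC. Detection in iNSCs and in both clones was also required. The filter kept 13 of 6607 genes (0.197%). *Tpmt*, an enzyme that methylates thiopurines, had the largest margin, with 8.77 and 8.73 in iNdiPSC-1 and iNdiPSC-4, against 8.45 in iNSCs, and between 5.58 and 6.43 on the other 5 arrays. *Acsl6*, an acyl-CoA synthetase of brain, had 7.08 and 6.87 in the clones against 7.18 in iNSCs, and *Lrp6*, the coreceptor of Wnt ligands, had 7.22 and 7.02 in the clones against 7.27 in iNSCs. The clones were within 2-fold of iNSCs on all 3 genes. *Acsl6* was also present in NSCs, at 7.53, whereas *Lrp6* had 5.42 there.

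A further 3 genes that passed had fallen in the clones and still lay above ESC and MEF4FiPSC. *Atp1b2*, a sodium pump subunit of glia, had 6.84 and 6.59 in the clones against 9.85 in iNSCs (8.82-fold lower, adjusted p = 0.00033), with 5.19 to 5.501 in the control pluripotent lines. *Plekhb1*, a pleckstrin homology protein, fell 3.23-fold and *Klk1b22*, a kallikrein, fell 4.83-fold. The remaining genes were *Ehd3*, *Abhd1*, *Trim36*, *Ankrd61*, *Pdlim3*, *Zbtb46* and *Tmem25*, with log2 differences between the clones and iNSCs of -0.77 to 0.72. The iNSCs and clones share the strain C3H while ESC, MEF and MEF4FiPSC are B6D2F1/J, so carried-over expression and strain cannot be told apart. Without background correction, or at 4-fold, *Tpmt* alone passed, and with the authors' processed values 45 genes passed, all 13 among them. When "or" in the last criterion is read as above at least 1 of MEF and ESC, 29 genes passed. With iNdiPSC-4 alone 19 genes passed, and with iNdiPSC-1 alone 24. The study named 3 genes from its own filter, *Tpmt*, *Acsl6* and *Atp1b2*, and measured them by qRT-PCR. In that assay *Tpmt* did not show the array pattern in iNdiPSCs, and *Acsl6* was also detected in MEF4FiPSC. *Atp1b2* had similar levels across the pluripotent lines, and the study reported no iNSC memory in its iNdiPSCs.

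**Figure D3:**
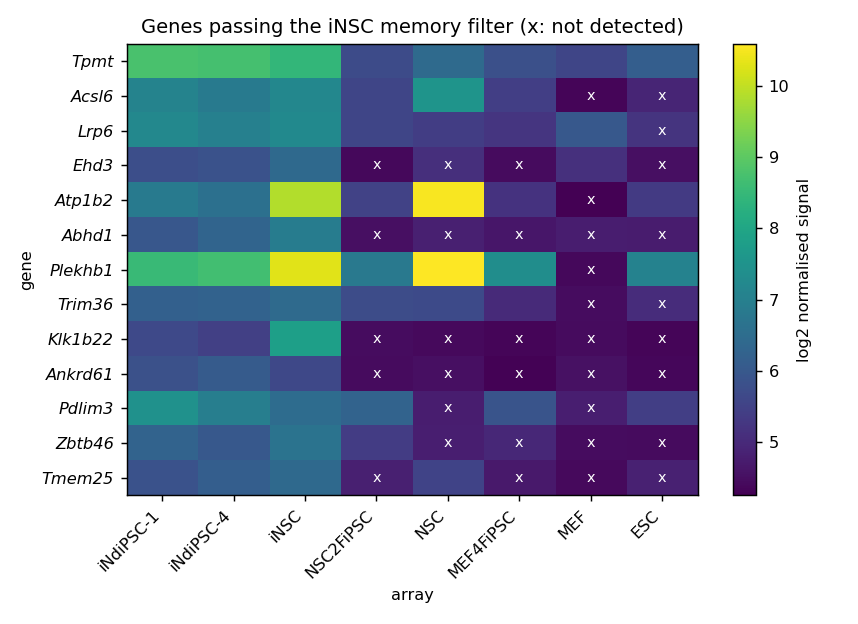
Log2 normalised signal (colour) of the 13 genes that passed the filter for expression carried over from iNSCs, in each of the 8 arrays, with x for values that were not detected. *Tpmt* is at 8.77 and 8.73 in the clones and 8.45 in iNSCs, and no other array exceeds 6.43.

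The conversion of brain-derived NSCs to NSC2FiPSC used the same factors as that of iNSCs, and both comparisons are within 1 strain. They share no array. Between NSC2FiPSC and NSC, 42.5% of genes differed by 2-fold, on 1 array against 1 and with no test. Of 8424 genes tested in both conversions, 3658 were called in iNdiPSC against iNSC and 3566 in NSC2FiPSC against NSC. The same direction was called in both for 1288 higher and 1260 lower genes, which are 69.66% of the calls of iNdiPSC against iNSC and 71.45% of those of NSC2FiPSC against NSC. Pearson's r over these genes was 0.85, across genes that are not independent replicates. A call in iNdiPSC against iNSC alone was found for 1075 genes and in NSC2FiPSC against NSC alone for 983. Whether these differ between the conversions was not tested, since no group but the clones has replicates.

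Calls in opposite directions were made for 35 genes, 21 of them higher in iNdiPSC and lower in NSC2FiPSC. Enzymes of cholesterol synthesis were among the leading ones. *Lss* was at 8.70 and 8.67 in the clones, against 6.29 in iNSCs, and at 8.21 in NSC2FiPSC, against 10.10 in NSC. *Dhcr7*, which makes the last step to cholesterol, was at 8.05 and 7.89, against 6.33 in iNSCs, and at 7.001 in NSC2FiPSC, against 9.88 in NSC. On both genes, and on *Fdps* and *Msmo1*, NSC had the highest level of the 8 arrays and iNSC the lowest, with the other 6 arrays between. *Bmp7* was at 7.51 and 7.26, against 4.71 (not detected) in iNSCs, and at 5.54 in NSC2FiPSC, against 8.20 in NSC. *Ccnd1* (cyclin D1) was at 10.20 and 10.06, against 8.51 in iNSCs, and at 10.33 in NSC2FiPSC, against 13.24 in NSC. *Vegfa*, the endothelial growth factor, went the other way, at 8.91 and 8.80, against 10.51 in iNSCs, and at 8.91 in NSC2FiPSC, against 7.501 in NSC.

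**Figure D4:**
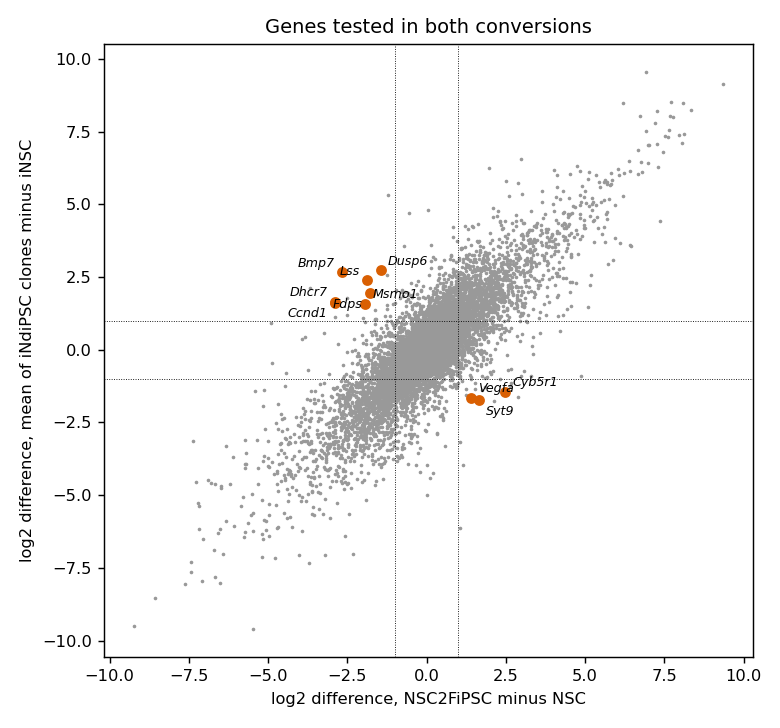
Log2 difference of the iNdiPSC clones from iNSCs (vertical axis) against that of NSC2FiPSC from NSC (horizontal axis) for 8424 genes, 1 point each, with dotted lines at 2-fold and the 10 genes with the largest opposite differences in orange. Most called genes lie along the diagonal, where 1288 are higher and 1260 lower in both conversions.

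The levels the clones reached were set beside the 3 control pluripotent lines. Of 1964 genes that were higher than in iNSCs, 1903 (96.89%) ended within 2-fold of the range of the control lines, 48 above it and 13 below it. Of 1882 lower genes, 1869 (99.31%) ended within 2-fold of this range, 11 below it and 2 above it. These genes were selected for a difference from iNSCs and not for their level in the control lines, but limma's spread includes those lines. The same share over all tested genes was not computed, so these percentages have no background to be read against. Of the lower genes, 599 were undetected in both clones and had little room to end below lines that also lay near the floor. The gene furthest from the range was *Olig1*, undetected in the clones and at 8.92, 9.01 and 10.67 in NSC2FiPSC, MEF4FiPSC and ESC. *Csrp1*, a LIM domain protein, had 5.61 and 5.87 in the clones against 4.55 (not detected) in iNSCs, and between 9.56 and 9.94 in the control lines. *Ttc27* had 7.25 and 7.25 in the clones against 5.64 in iNSCs, and between 10.13 and 10.42 in the control lines. These genes were thus lower in all 3 C3H samples than in those lines, apart from *Olig1* in iNSCs.

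Genes on which the clones passed the control lines included *H2-Bl*, an MHC class I gene, with 8.52 and 8.63 in the clones against 4.31 (not detected) in iNSCs and at most 5.91 in the control lines, and *Hecw2*, a ubiquitin ligase, with 7.72 and 7.12 in the clones against 4.36 (not detected) in iNSCs and no detection in the control lines. *Crxos*, a homeobox gene, had 7.83 and 7.39 in the clones against 4.69 (not detected) in iNSCs, and *Cd160*, a receptor of immune cells, had 6.71 and 7.05 in the clones against 4.43 (not detected) in iNSCs, without detection in the control lines. *Asz1*, a germ line gene, had 9.86 and 8.98 in the clones against 4.99 (not detected) in iNSCs and between 5.499 and 6.73 in the control lines. On other genes iNSCs already lay below the control lines, and the clones lay further below without passing them. *Nod1*, a sensor of bacterial peptides, had 4.72 and 4.90 (not detected) in the clones against 6.45 in iNSCs, and was at 7.46 or above in the control lines. *Pclaf*, a partner of the replication clamp, was lower at 5.59 and 5.57 in the clones against 6.67 in iNSCs, and had 8.39 to 9.58 in the control lines. It did not pass limma (adjusted p = 0.114) and was not called with 75th percentile scaling. The clones are C3H and the control lines B6D2F1/J, so strain and a property of the clones cannot be told apart.

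The clones differed little from each other. Of 8338 genes detected in either clone, 49 (0.588%) were at least 2-fold apart, 36 higher in iNdiPSC-1 and 13 higher in iNdiPSC-4, and the median absolute log2 difference was 0.18. No gene was called in opposite directions against iNSCs, and 814 tested genes passed 2-fold in only 1 of the clones. *Magea5* and *Magea2*, members of an X-linked cancer and testis gene family, had 6.82 and 4.41 (the second not detected) and 7.51 and 5.37 in iNdiPSC-1 and iNdiPSC-4. *Nlrp4c*, a gene of oocytes and early embryos, had 9.87 and 8.15, and *Usp17la*, a deubiquitinase, had 7.48 and 5.75. *Gm7609* was higher in iNdiPSC-4, with 6.51 and 8.10. Among the 10 genes furthest apart, 9 were higher in iNdiPSC-1. Several belong to families of near-identical copies, and which copies the probes read was not tested.

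One chromosome stood apart between the clones. Over 372 genes of chromosome 1 detected in both clones, the median log2 difference of iNdiPSC-4 from iNdiPSC-1 was -0.32. Against the mean of the 3 control lines, chromosome 1 had a median of 0.38 in iNdiPSC-1 and 0.06 in iNdiPSC-4. Chromosome 2 had a smaller shift the other way, with a median difference of 0.15 between iNdiPSC-4 and iNdiPSC-1 over 630 genes, from 0.18 in iNdiPSC-4 and 0.01 in iNdiPSC-1 against the control lines. On the other chromosomes the clones differed by a median of between -0.09 and 0.05. Genes named in this report that are on chromosome 1 include *Mcm3* and *Mcm6*, *Lefty1*, *Inhbb*, *Tgfb2*, *Hecw2*, *Csrp1*, *Cyb5r1* and *Gm7609*. All of these but *Gm7609* were called, which by rule requires both clones to differ from iNSCs in the same direction. *Gm7609* was higher in iNdiPSC-4, against the shift of the chromosome, and was not called. What the shift adds to the differences of these genes was not tested. The chromosome medians are descriptions over genes of single arrays and were not tested. The study reported a normal karyotype for its iNdiPSC clones from chromosome spreads, and the cause of the shifts was not tested.

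**Figure D5:**
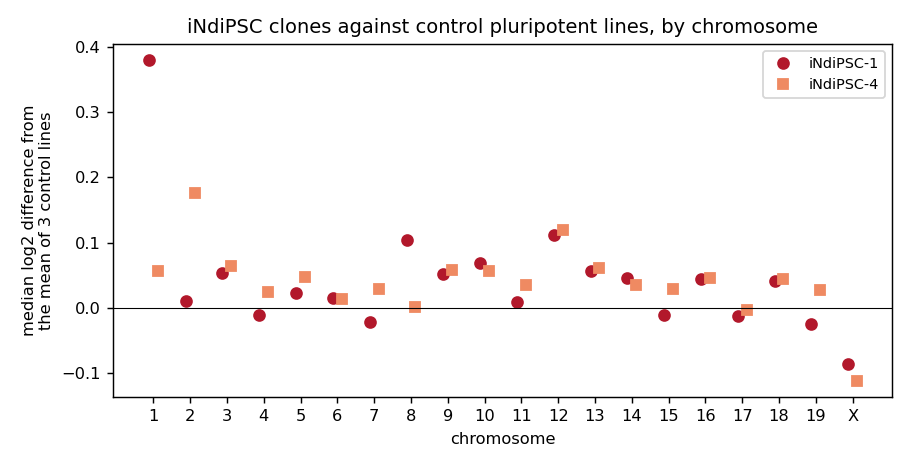
Median log2 difference of iNdiPSC-1 (circles) and iNdiPSC-4 (squares) from the mean of the 3 control pluripotent lines, over the genes of each chromosome that both clones express. iNdiPSC-1 reaches 0.38 on chromosome 1, where iNdiPSC-4 is at 0.06, and iNdiPSC-4 reaches 0.18 on chromosome 2, where iNdiPSC-1 is at 0.01.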

How the data were processed

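RNA of 8 mouse cell samples was hybridised to Illumina bead arrays, 1 array per sample, of which iNdiPSC-1, iNdiPSC-4 and iNSC are described here with the other 5 arrays as controls. The bead intensities were deposited as scanned with BeadStudio 3.2, with no normalization seen in them, and a detection p-value for each probe and array was deposited beside them. The processed log2 values that the authors deposited are named in the submitters' notes beside RMA and lumi, had the same order of probes as the intensities on every array and a median of 3.46, and served only as an alternative. Probes were named through GEO's platform annotation (23978 with 1 gene symbol, 0 with several, 1719 with none), and 16582 of 16593 symbols were updated by Entrez ID through a RefSeq table of GRCm38.p6.

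All 8 arrays were normalized together with neqc (limma 3.58.1 in R 4.3.3, normexp background with an offset of 16, then quantile normalization, log2). The number of arrays limits the precision, and the labels do not say whether the clones were cultured and extracted independently, so the spread between them may be partly technical. A gene was tested when it was detected at p below 0.01 in iNSC or in both clones. It was called when both clones differed from iNSC by at least 2-fold in the same direction. For limma, the 8 arrays were fitted as 5 groups (clones, the 3 control pluripotent lines, iNSC, NSC, MEF), and p-values were adjusted over 8942 genes by the method of Benjamini and Hochberg. A run of limma was also made on simulated data for these 8942 genes. All simulated arrays had the clone means, with normal noise of the fitted spread for iNSC too and no detection floor. Only a small share of the genes was changed. The run therefore cannot tell whether the spread assumed for iNSC holds. In it limma recovered 70.0%, 90.0%, 98.0% and 100.0% of genes changed by 1.5, 2, 3 and 5 on the log2 scale. Of its calls on those data, 5.29% were false. The rate of false calls on the measured arrays was not tested, since iNSC has 1 array and no spread of its own. Promoter windows and sequences are those of RefSeq on GRCm38.p6, and *Cdh1*, *Dppa5a* and *Esrp1* have none here.

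The clones, the gene lists and the tests were chosen with earlier results of these data known. The genes named were taken from the 20 genes of largest difference in each direction, up to 6 called genes per direction and 4 further genes of each of 36 lists, markers of cell types, the 10 leading genes of each other comparison and all genes of the memory filter. No column of the tables was left without a sample, and no comparison columns of the authors were used. Alternatives covered background correction, scaling, the authors' values, detection, probes per gene, the fold, and leaving out arrays.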

Additional observations from a re-analysis of the deposited data

Results flagged for a closer look

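Genes called 2-fold in opposite directions in iNdiPSC against iNSC and in NSC2FiPSC against NSC numbered 35, and the difference between the conversions was not tested. The 10 with the largest opposite differences were these. *Bmp7* was higher by 2.67 on the log2 scale in iNdiPSCs than in iNSCs and changed by -2.66 in NSC2FiPSC against NSC. Of the enzymes of cholesterol synthesis, *Lss* had log2 differences of 2.39 and -1.89, *Fdps* of 1.94 and -1.80, *Dhcr7* of 1.64 and -2.88, and *Msmo1* of 1.59 and -1.94, given for iNdiPSC against iNSC first and for NSC2FiPSC against NSC second. In the same order, *Ccnd1* had 1.62 and -2.90, and *Dusp6*, the phosphatase of ERK, had 2.74 and -1.45. With the opposite signs, *Syt9*, a synaptotagmin, had -1.73 and 1.64, *Vegfa* had -1.65 and 1.41, and *Cyb5r1*, a cytochrome b5 reductase, had -1.44 and 2.47 (limma adjusted p = 0.0517 for iNdiPSC against iNSC).

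Of 765 tested probes that name no gene, 314 (41.0%) differed by 2-fold between both clones and iNSCs, 187 of them higher and 127 lower, against 43.0% of the tested genes. These probes entered no comparison of genes.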

How the results depend on the processing

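The count of 3846 called genes lay between 1600 at 4-fold and 5459 when each probe stood on its own. It was 2168 without background correction and 2309 with detection on all 3 arrays. It stayed within 1.5 times the count with the authors' values (4617), an offset of 50 (2892) and the other alternatives. Among these, undetected values at the floor gave 3407 genes, 1681 higher and 1726 lower. For limma the counts were 2297 without background correction, 2446 with detection on all 3 arrays and 1715 at 4-fold. Leaving out a clone gave 4262 and 4295 genes by the fold rule, and leaving out a clone or a control line gave 3084 to 4107 by limma. A detection p below 0.05 and no detection filter left the count by the fold rule at 3846. No gene undetected on all 3 arrays differed by more than 0.98 on the log2 scale. The memory filter kept 29 genes with 1 of MEF and ESC as the criterion, 1 without background correction, 45 with the authors' values, 1 at 4-fold, and 19 and 24 without iNdiPSC-1 and without iNdiPSC-4. Genes called alike in both conversions numbered 1305 without background correction, 953 at 4-fold and 2680 to 2691 without a clone. Those called oppositely numbered 10 without background correction, 65 with the authors' values, 1 at 4-fold and 45 to 46 without a clone. The causes of these differences were not tested, beyond the fewer genes that a stricter rule can keep.

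The alternatives were compared for 257 of the named genes. Of these, 237 kept their side of the fold rule without background correction, 255 with 75th percentile scaling and 252 with the authors' values. None changed sign while called. The calls lost without background correction were those of *Amn*, *Bmp4*, *Cd160*, *Cdh2*, *Cdkn1b*, *Csrp1*, *Cyb5r1*, *Dhcr7*, *Eomes*, *Fgfr1*, *Fgfr2*, *Gata6*, *Itgb1*, *Nkx2-2*, *Nod1*, *Notch3*, *Pclaf*, *Thy1*, *Ttc27* and *Usp17la*. The median was above 0 for 24 of 36 lists in each of 4 settings, and the median of all tested genes moved to at most 0.0503, with 75th percentile scaling. No paired analysis was possible because iNSC has 1 array and the replicate numbers of the labels do not tie samples together. Signals near the detection floor limit the folds of undetected genes to lower bounds.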
